A study of Mus musculus with 4 samples.

Results

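The 10 genes described here encode the core machinery of mitochondrial fusion and fission. They are the outer membrane fusion GTPases Mfn1 and Mfn2, the inner membrane fusion GTPase Opa1, the proteases Oma1 and Yme1l1 that cleave Opa1, the fission GTPase Dnm1l (also called Drp1), and Fis1, Mff, Mief1 and Mief2, which sit in the outer membrane and bind Dnm1l. They were chosen by gene symbol from the 49997 genes of the count tables. All 10 were found, and all 10 were among the 19837 genes with enough reads to be tested. Every library held at least 336 reads of each.

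Mitochondria form a network that is joined by fusion and cut by fission. The mitofusins tether and merge outer membranes, and Opa1 merges inner membranes and shapes cristae. Yme1l1 processes Opa1 in healthy mitochondria. Oma1 is activated when the membrane potential is lost and then converts the long, fusion-active forms of Opa1 into short ones. Dnm1l is recruited from the cytosol to the outer membrane, where it assembles into rings that constrict the organelle. Much of this regulation acts on the proteins, by cleavage, phosphorylation and recruitment, and is not visible in counts of RNA.

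The RNA was that of cultured pieces of the mouse aorta-gonad-mesonephros (AGM), the part of the embryo where the first definitive blood stem cells form. All explants were of genotype C57BL/6J and were kept for 48 hours on membrane filters in MyeloCult medium with hydrocortisone. The 2 untreated libraries had no further treatment, and the 2 CCCP libraries came from explants kept with 5 µM CCCP, a protonophore that dissipates the mitochondrial membrane potential. The labels name embryos of E10.5 and E11.5 in the culture protocol and of E10.5 alone in the design text, and do not say whether a library was 1 embryo or a pool. They call the cells both explants and Kit-positive stem cells. Nothing in them says that the replicates were separate cultures, so the p-values measure only the spread between these libraries.

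The libraries held between 37360968 and 48827826 counted reads. Levels are given in CPM, reads of a gene scaled to a common library size after TMM correction, with factors from 0.966 to 1.04. Among 8 lists of cell type markers, the 11 hepatic markers had a summed level of 904 to 1560 CPM in the untreated libraries and 4.04 to 71.6 CPM in the CCCP libraries, with Fga and Ahsg each at 0 in at least 1 library. The 13 haematopoietic markers, Kit and Ptprc among them, summed to 194 to 207 CPM in the untreated and 160 to 184 CPM in the CCCP libraries, and none of them was at 0 in a library. Of these 13, 4 were positive and 9 negative in log2 fold change. The 9 mesenchymal markers summed to 3254 to 5594 and 3630 to 4723 CPM, so RNA of cells other than the stem cells of the labels was present. Summed levels were higher in both CCCP libraries for 9 erythroid markers (2252 and 2414 CPM untreated, 2553 and 3607 CPM treated) and 8 neural and neural crest markers (699 to 725 and 803 to 859 CPM). A sum is carried by its highest genes. Of the erythroid markers, 7 were positive and 2 negative in log2 fold change. Taken singly, 3 of these 9 were higher in both CCCP libraries and 1 lower, against 24% and 24.8% of all tested genes. In edgeR and in DESeq2, 0 of the 9 passed. The neural list had 5 positive and 3 negative, with a median of 0.04, so it was not higher as a class. Of its 8 genes, 3 were higher in both CCCP libraries and 2 lower. For 10 endothelial markers the sums were 533 and 681 CPM untreated and 546 and 512 CPM treated, with 8 of the 10 negative in log2 fold change. Sums of the mesenchymal, skeletal muscle, and kidney and gonad lists overlapped between the groups. In such bulk RNA, fewer cells of a type and less RNA per cell cannot be told apart, and the part of these cell types in the results below was not tested.

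Dnm1l had the largest difference of the 10 genes. It was lower in both CCCP libraries, while the GTPases of the outer membrane were nearly level and the Dnm1l-binding proteins Fis1 and Mief2 were somewhat higher. None of the 10 differed at an adjusted p-value under 0.05 in edgeR's quasi-likelihood test, where 0% of all genes did. At an unadjusted p under 0.05 there were 2 members, Dnm1l and Yme1l1, both lower, against 9.16% of all genes in that direction. In DESeq2, 1 of the 10 passed, which was Dnm1l, against 2.7% of all genes called lower. Both CCCP libraries lay below both untreated libraries for 4 members (Dnm1l, Yme1l1, Opa1 and Mfn1) and above them for 2 (Fis1 and Mief2). Of all tested genes, 24.8% were separated in the lower direction and 24% in the higher, 48.8% in all, so 6 of 10 is near the background. The median log2 fold change was 0.05 over the 10 members and -0.01 over all genes tested.

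**Figure D1:**
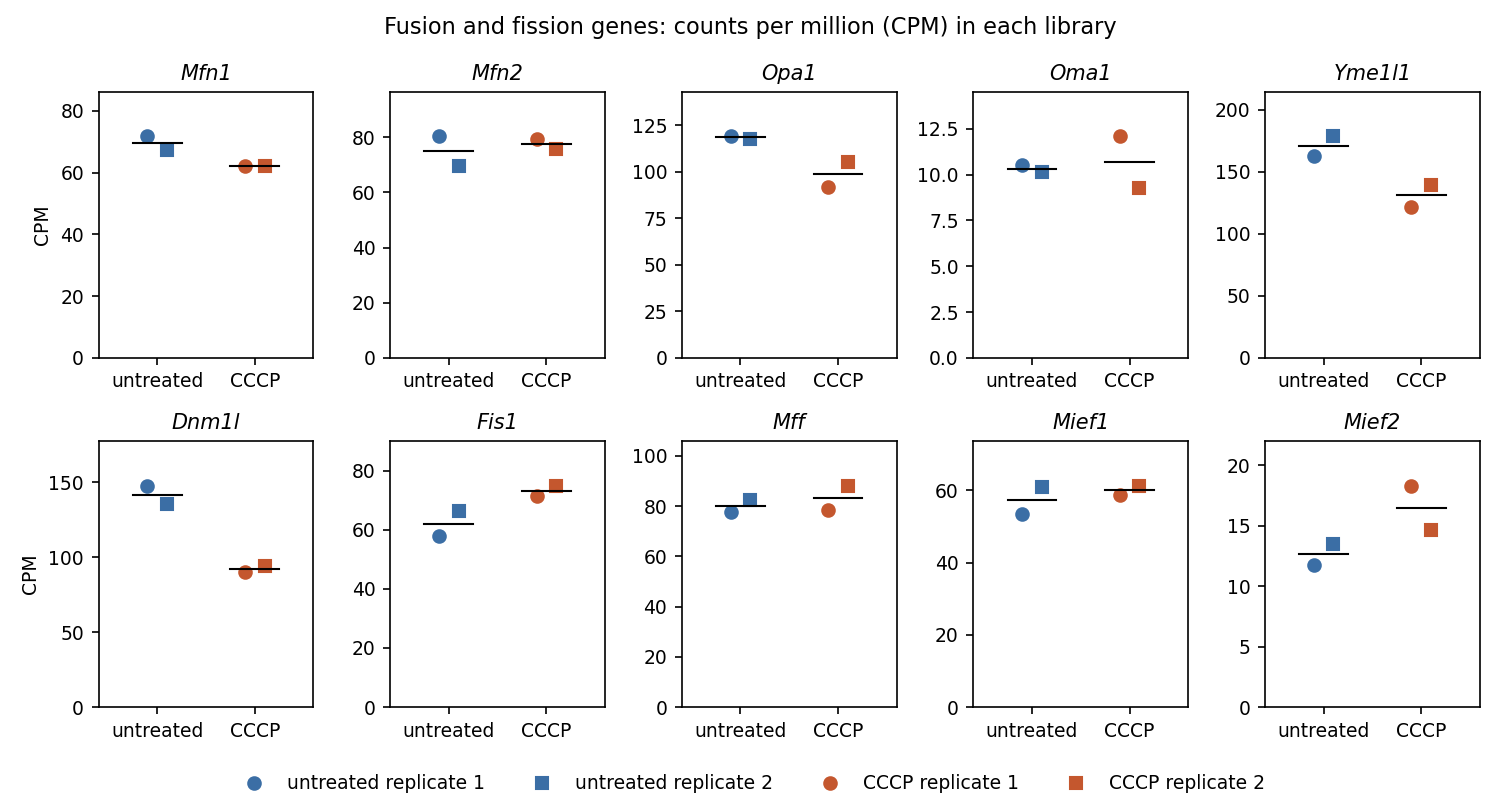
Level in CPM (vertical axis, from 0) of each of the 10 genes in the 2 untreated libraries (blue) and the 2 CCCP libraries (orange). Circles are replicate 1, squares replicate 2 and bars the group mean. For Dnm1l the untreated libraries stand at 148 and 136 CPM and the CCCP libraries at 90.2 and 94.1 CPM.

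The starts of the genes with the lowest (Dnm1l, Yme1l1) and the highest (Fis1, Mief2) fold changes are shown because these pairs mark the ends of the range in the explants. Each sequence is the 250 bases before the RefSeq start nearest to the 5′ end of the gene in the count tables (7 bases from it for Dnm1l, 1063 for Yme1l1 and 0 for Fis1 and Mief2), on GRCm38.p6, the assembly of mm10, written 5′ to 3′ on the strand of the gene. Capitals mark matches, on either strand, to TGCGCA (NRF1), CCGGAAG (GABPA and other ETS factors), GGGCGG (SP1), CCAAT (NF-Y) and TGATGNAA (ATF4 with C/EBP). None of these motifs is part of another.
Dnm1l (chr16:16359032-16359281, minus strand): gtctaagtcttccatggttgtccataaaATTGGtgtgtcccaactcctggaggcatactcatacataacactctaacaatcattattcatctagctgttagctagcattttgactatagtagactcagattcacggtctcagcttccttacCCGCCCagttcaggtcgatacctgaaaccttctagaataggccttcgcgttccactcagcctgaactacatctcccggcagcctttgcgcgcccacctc
Yme1l1 (chr2:23156255-23156504, plus strand): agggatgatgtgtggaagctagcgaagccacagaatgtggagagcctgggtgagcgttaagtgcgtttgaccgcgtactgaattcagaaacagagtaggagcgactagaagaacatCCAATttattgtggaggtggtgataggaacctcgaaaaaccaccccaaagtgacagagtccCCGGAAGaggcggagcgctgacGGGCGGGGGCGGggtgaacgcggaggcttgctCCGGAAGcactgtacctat
Fis1 (chr5:136953025-136953274, plus strand): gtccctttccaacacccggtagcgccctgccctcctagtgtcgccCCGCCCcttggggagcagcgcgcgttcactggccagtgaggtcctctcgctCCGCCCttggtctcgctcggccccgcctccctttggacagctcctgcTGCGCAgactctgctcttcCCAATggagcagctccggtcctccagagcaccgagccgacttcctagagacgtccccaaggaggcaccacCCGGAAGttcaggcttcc
Mief2 (chr11:60728148-60728397, plus strand): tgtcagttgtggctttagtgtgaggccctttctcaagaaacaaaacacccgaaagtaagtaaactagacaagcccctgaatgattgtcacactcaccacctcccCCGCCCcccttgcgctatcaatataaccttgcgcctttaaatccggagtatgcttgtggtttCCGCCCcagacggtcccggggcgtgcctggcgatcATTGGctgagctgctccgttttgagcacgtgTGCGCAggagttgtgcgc

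All 10 members had an entry in the promoter table. GGGCGG was found in 10 of 10 windows, against 53.5% of the 14096 windows of tested genes, and CCAAT in 7 of 10, against 35.5%. CCGGAAG was found in 4 windows (Mfn1, Yme1l1, Fis1 and Mief1), against 11.3%, and TGCGCA in 3 (Opa1, Fis1 and Mief2), against 10.3%. TGATGNAA was in 0 of the 10, against 2.22%. The 250 bases had a GC content of 47.6% for Dnm1l, 55.2% for Yme1l1, 66.8% for Fis1 and 54.4% for Mief2, with a median of 58.8% over all windows. Matches of these letters are a description of the sequence and were not tested against the fold changes.

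Dnm1l (chromosome 16, 16312228 to 16359038, minus strand, mm10) had 148 and 136 CPM in untreated replicates 1 and 2 and 90.2 and 94.1 CPM in CCCP replicates 1 and 2. The gap between the groups was wide against the gap within each, with 142 ± 8.68 CPM in untreated and 92.2 ± 2.73 CPM in CCCP explants (SD, n = 2). This gave a log2 fold change of -0.62 (standard error 0.115), or 0.651 times the untreated level. The adjusted p-value was 0.159 in edgeR, 0.00312 in edgeR without a filter on low counts and 0.00489 in DESeq2, so the call depends on the fit. Only 193 of 19837 genes had a smaller unadjusted p in edgeR. The direction was the same whichever library was left out, with log2 fold changes from -0.65 to -0.55. No other annotated gene overlaps its exons.

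Fold changes over all genes were correlated with GC content, and Dnm1l lies at the AT-rich end. Over all tested genes with a known GC content, Spearman's rho of log2 fold change with GC content was 0.374, and with exon length it was -0.36 (across genes, which are not independent replicates). Dnm1l transcripts have a GC content of 40.9%, within the lowest 10% of genes, whose median log2 fold change was -0.38. In that group 27.1% of genes had a lower fold change than Dnm1l, against 13.7% of all genes. When the GC trend was removed from each library the log2 fold change of Dnm1l was -0.34 (edgeR adjusted p-value 0.43). With the exon length trend removed it was -0.57 (0.272). What these trends come from, and what part they have in the difference of Dnm1l, was not tested. Removing a trend can also remove a change that came with CCCP.

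Yme1l1, the inner membrane protease that trims Opa1 constitutively, had the smallest unadjusted p after Dnm1l. Yme1l1 (chromosome 2, 23155442 to 23199260) had 163 and 179 CPM in untreated explants against 122 and 140 CPM under CCCP. The groups did not overlap, but they were closer than for Dnm1l. The log2 fold change was -0.38 (standard error 0.127, edgeR adjusted p-value 0.282). Its GC content of 38.0% is also within the lowest 10% of genes, and with the GC trend removed its log2 fold change was 0.01. With 1 library left out it ran from -0.48 to -0.28.

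Oma1 (chromosome 4, 103311875 to 103371869), the stress-activated protease that acts on Opa1 at another site, was counted least of the 10 genes. It had 10.51 and 10.2 CPM in untreated replicates 1 and 2 and 12.1 and 9.26 CPM under CCCP. The CCCP libraries lay on either side of the untreated ones. The log2 fold change was 0.05 (standard error 0.215, edgeR adjusted p-value 0.935), and it was -0.15 without CCCP replicate 1 and 0.24 without CCCP replicate 2. With 336 to 587 reads per library, counting error alone is 4.13% to 5.46% of each value. With the exon length trend removed its log2 fold change was 0.36.

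Opa1 (chromosome 16, 29579281 to 29663127), the inner membrane fusion GTPase and the substrate of both proteases, had 119 and 118 CPM in the untreated libraries. In the CCCP libraries it had 91.9 and 105 CPM, below both untreated ones. The log2 fold change was -0.26 (standard error 0.121, edgeR adjusted p-value 0.374). It was -0.09 with the GC trend removed and -0.07 with the length trend removed, and without CCCP replicate 1 it was -0.16. Long and short forms of the protein come from cleavage and from splicing, and neither is resolved by counts summed per gene.

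The mitofusins differed least between the groups among the GTPases. Mfn1 (chromosome 3, 32529443 to 32579225) had 71.7 and 67.3 CPM in the untreated and 62.2 CPM in each of the CCCP libraries. Its log2 fold change was -0.16 (standard error 0.111, edgeR adjusted p-value 0.523), so the gap of the groups was small, although they did not overlap. It was -0.10 without untreated replicate 1 and also with the length trend removed, and -0.07 with the GC trend removed. Of its exon bases, 13.9% overlap exons of Gnb4 on the other strand, and reads that touch both genes were not counted. Mfn2 (chromosome 4, 147873586 to 147904909) had 80.3 and 69.7 CPM untreated and 79.5 and 75.7 CPM treated. Both CCCP values lay between the untreated ones, and the log2 fold change was 0.05 (standard error 0.124, edgeR adjusted p-value 0.877). The sign of Mfn2 was negative with library size alone as the scale (-0.01), with the GC trend removed (-0.06) and without untreated replicate 2 (-0.02). It was 0.16 with the length trend removed and also without untreated replicate 1. The annotation used for counting also lists Mfn2 on an alternate contig, so its reads may have been split or dropped and its level is uncertain.

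The Dnm1l-binding proteins all had a log2 fold change above 0, as did 9751 of the 19837 tested genes. None of the 4 passed the test. Fis1 (chromosome 5, 136953275 to 136966234), a small tail-anchored protein, had 57.7 and 66.3 CPM without CCCP and 71.4 and 74.9 CPM with it. The groups did not overlap, and the log2 fold change was 0.24 (standard error 0.123, edgeR adjusted p-value 0.416). Mief2 (chromosome 11, 60728398 to 60732951), also called MiD49, had 11.7 and 13.5 CPM in untreated explants against 18.3 and 14.7 CPM under CCCP. This was the largest positive value of the 10, with a log2 fold change of 0.39 (standard error 0.198, edgeR adjusted p-value 0.414), and CCCP replicate 1 stood apart from the rest. Without CCCP replicate 1 it was 0.22, and with the GC trend removed 0.23. For Fis1 the value was 0.15 without untreated replicate 1, 0.37 without untreated replicate 2, 0.05 with the length trend removed and 0.11 with the GC trend removed.

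Mff and Mief1 overlapped between the groups. Mff (chromosome 1, 82724890 to 82752390), a main receptor of Dnm1l on mitochondria, had 77.6 and 82.5 CPM in untreated replicates 1 and 2 and 78.3 and 88.2 CPM under CCCP, a log2 fold change of 0.06 (standard error 0.12, edgeR adjusted p-value 0.854). Its GC content, at 37.3%, is the lowest of the 10. Of the genes in the lowest 10% by GC content, 84.6% had a lower fold change than Mff. With the GC trend removed its log2 fold change was 0.48 (edgeR adjusted p-value 0.358). The sign of Mff was negative with the length trend removed (-0.06), with library size alone (-0.002) and without CCCP replicate 2 (-0.02). Mief1 (chromosome 15, 80233964 to 80253372), also called MiD51, had 53.5 and 61.0 CPM untreated and 58.8 and 61.3 CPM treated. Its log2 fold change was 0.07 (standard error 0.123, edgeR adjusted p-value 0.814), and leaving out untreated replicate 1 gave -0.01 and untreated replicate 2 gave 0.1997. With the length and the GC trend removed it was 0.17 and 0.02.

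**Figure D2:**
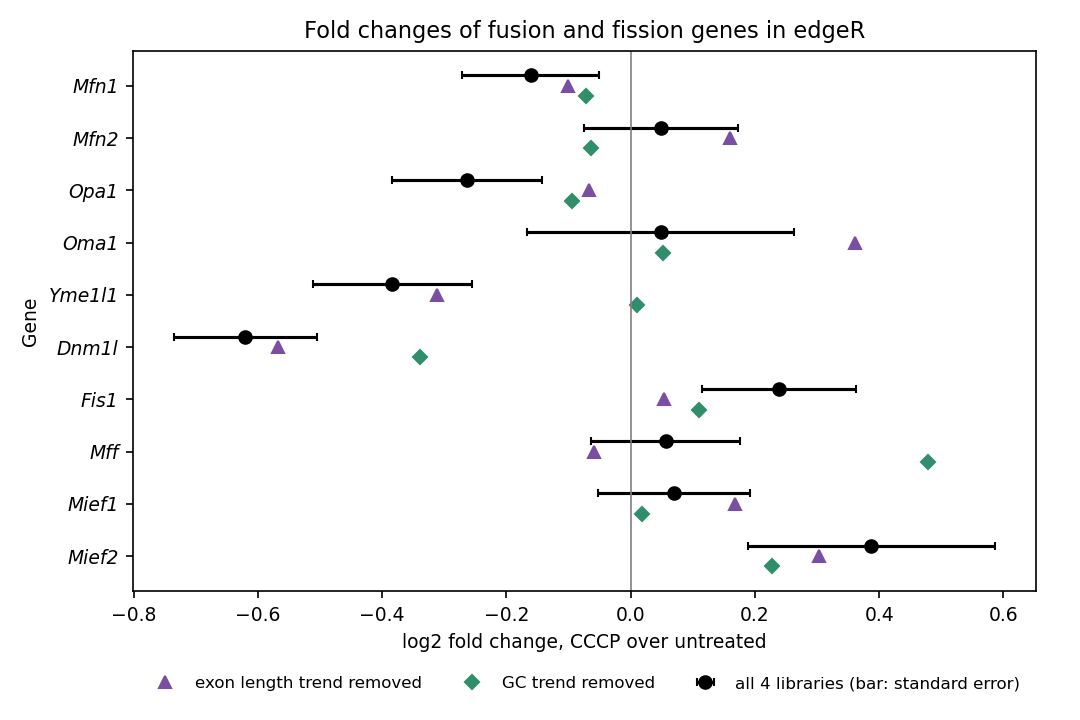
Log2 fold change of CCCP over untreated (horizontal axis) for each of the 10 genes (vertical axis) in edgeR. Black circles with bars are the values and standard errors from all 4 libraries, purple triangles the values with the exon length trend removed and green diamonds those with the GC trend removed. Dnm1l is negative in all 3 (-0.62, -0.57 and -0.34), and Yme1l1 moves to 0.01 with the GC trend removed.

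Across the 10 members, Spearman's rho of log2 fold change with GC content was 0.709, and with exon length it was -0.394. Both are descriptions, since all points share the same 4 libraries. Dnm1l and Yme1l1 lay below the middle 50% of genes of like length, where 11.7% and 21.8% had a lower fold change. Oma1 (exons of 11285 bases) and Mief2 lay above it, with 88.9% and 86.2% lower. In GC content, Mff and Mief2 lay above the middle 50% of their groups and the other 8 within it, Dnm1l among them, with a lower quartile of -0.65 in its group.

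**Figure D3:**
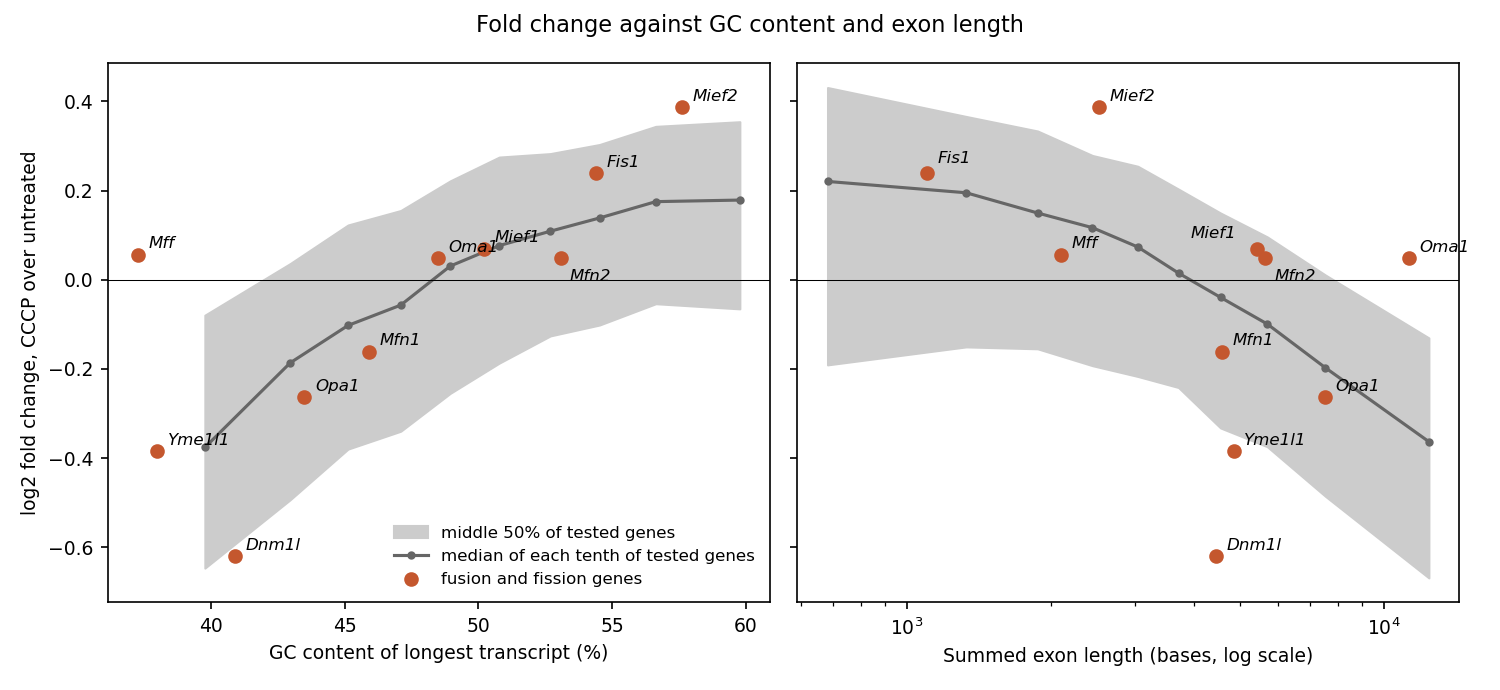
Log2 fold change (vertical axis) of the 10 genes (orange) against GC content in percent (left) and summed exon length in bases on a log axis (right). The grey line and band are the median and the middle 50% of all tested genes in each group of 10% along the axis. Mff and Mief2 stand above the band on the left. On the right, Dnm1l and Yme1l1 stand below it and Oma1 and Mief2 above it.

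Per kilobase of exon, Fis1 and Mff were the most abundant transcripts of the machinery. In untreated explants the order of CPM per kilobase was Fis1 (56.3 ± 5.51), Mff (38.1 ± 1.64), Yme1l1 (35.2 ± 2.30), Dnm1l (31.9 ± 1.95), Opa1 (15.7 ± 0.117), Mfn1 (15.2 ± 0.679), Mfn2 (13.4 ± 1.34), Mief1 (10.54 ± 0.982), Mief2 (5.01 ± 0.506) and Oma1 (0.916 ± 0.0217), each with SD and n = 2. Opa1 and Mfn1 overlapped in this order and so do not differ beyond their spread. The ranges of Mff and Yme1l1, of Yme1l1 and Dnm1l, and of Mfn1 and Mfn2 nearly touched, and the other neighbours were apart. The level of Mfn2 is also uncertain because of its alternate contig. In CCCP explants Dnm1l kept rank 4, at 20.7 ± 0.614 CPM per kilobase, and Opa1, Mfn1 and Mfn2 stood at 13.1 ± 1.26, 13.6 ± 0.0123 and 13.8 ± 0.471 with neighbours overlapping. The exon length is that of all annotated exons together, so a gene with long exons that are rarely used is understated on this scale. Reads that touch 2 genes were not counted, which can also understate a level. Overlaps with genes on the other strand cover 13.9% of the exon bases of Mfn1 and 9.28% of Mff. For Oma1 and Yme1l1 they cover 4.78% and 0.74%.

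Ratios of genes within a library do not depend on library scaling, and 4 were computed on counts per kilobase. The summed level of Mfn1, Mfn2 and Opa1 was 1.38 and 1.40 times that of Dnm1l in the untreated libraries and 1.97 and 1.94 times in the CCCP libraries. The replicates of each group nearly coincided, and the log2 ratio was higher in CCCP by 0.49 (0.47 ± 0.0189 against 0.97 ± 0.0152, SD, n = 2). Mfn1 over Mfn2 was 1.10 and 1.18 in untreated and 0.960 and 1.01 in CCCP libraries. Oma1 over Yme1l1 was 0.0277 and 0.0244 in untreated and 0.0426 and 0.0285 in CCCP libraries. Mief1 over Mief2 was 2.12 and 2.10 in untreated and 1.49 and 1.94 in CCCP libraries. The groups did not overlap in any of the 4 ratios, but for the Oma1 and Mief1 ratios CCCP replicate 2 lay close to the untreated libraries. The share of other gene ratios that separate was not computed. Of all tested genes taken singly, 48.8% were separated in either direction, and the ratios were chosen with earlier results of these data known. Without CCCP replicate 1 the log2 difference of the Oma1 ratio was 0.13 and without CCCP replicate 2 it was 0.71, against 0.42 with all libraries. That of the Mief1 ratio was -0.12 and -0.50, against -0.31. That of the fusion GTPases over Dnm1l ran from 0.48 to 0.50 with 1 library left out. No GC trend was removed from the ratios. Removing it from single genes moved the log2 fold change of Dnm1l from -0.62 to -0.34. Mfn1, Mfn2 and Opa1 then stood at -0.07, -0.06 and -0.09. An exact two-sided permutation test gave p = 0.3333 for each ratio, the smallest value that 2 against 2 libraries allow.

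**Figure D4:**
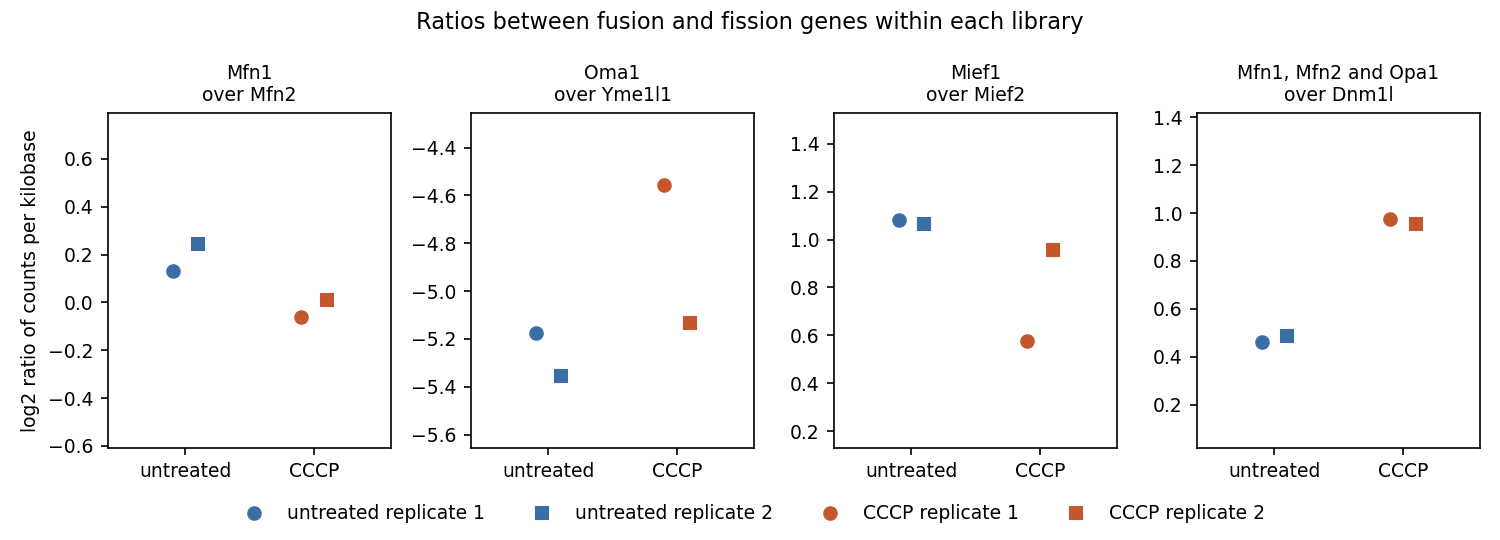
Log2 ratio of counts per kilobase (vertical axes, each spanning the same range) for 4 ratios between the genes, in the untreated (blue) and CCCP (orange) libraries. Circles are replicate 1 and squares replicate 2. The ratio of the 3 fusion GTPases to Dnm1l lies at 0.46 and 0.49 in untreated and at 0.98 and 0.95 in CCCP libraries.

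The partner genes of the pathway, 39 in 5 lists, were read from the same fit. None passed in edgeR, where 0% of all genes did, and 1 of 39 passed in DESeq2, which was Kif5b, against 2.7% of all genes called lower. Of the 39, 27 had a positive and 12 a negative log2 fold change, with a median of 0.16 against -0.01 over all genes. Among all 19837 tested genes, 9751 were positive and 10086 negative. Of the 39, 17 were higher in both CCCP libraries and 7 lower, against 24% and 24.8% of all genes. Those higher were 4 of 9 fusion and outer membrane turnover genes and 4 of 7 inner membrane genes. In the fission and transport lists they were 3 of 10 and 1 of 5. All 8 genes of the cristae junction list (the MICOS complex and its outer membrane partner Samm50) were positive, with a median of 0.24. Of these 8, 5 were higher in both CCCP libraries. Micos13, a small subunit of that complex, had 33.6 and 41.0 CPM without CCCP and 50.7 and 47.9 CPM with it (log2 fold change 0.40, edgeR adjusted p-value 0.3). The value of Micos13 was 0.19 with the length trend removed. Leaving out untreated replicate 1 gave a median of 0.13 for the cristae junction list, and leaving out untreated replicate 2 gave 0.42. With the length trend removed that median was 0.18.

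Among 10 further fission genes, 4 were positive and 6 negative, with a median of -0.05. Gdap1, an outer membrane protein whose loss causes a neuropathy, had 13.9 and 10.4 CPM in untreated explants against 8.22 and 6.81 CPM under CCCP, a log2 fold change of -0.69 (edgeR adjusted p-value 0.289). Mtfr1l had 58.2 and 60.2 CPM in untreated replicates 1 and 2 and 72.8 and 73.9 CPM under CCCP (0.31, edgeR adjusted p-value 0.3). The groups did not overlap for either gene. With the GC trend removed the values were -0.42 for Gdap1 and 0.20 for Mtfr1l. The median of the list was 0.21 without untreated replicate 2, -0.14 without untreated replicate 1 and 0.10 with the length trend removed, so its sign depends on these choices.

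Of 9 genes that aid fusion or turn over outer membrane proteins, 7 were positive, with a median of 0.25. Usp30, a mitochondrial deubiquitinase, had a log2 fold change of 0.27 and Miga1, which promotes fusion, of -0.30 (edgeR adjusted p-values 0.37 and 0.363), or 0.14 and -0.11 with the GC trend removed. That median was 0.07 without untreated replicate 1 and 0.11 with the GC trend removed. Of 7 genes of inner membrane proteolysis and scaffolds, 6 were positive, with a median of 0.17. Romo1, which Opa1 oligomers need, had 27.2 and 25.9 CPM untreated and 36.2 and 38.2 CPM treated (0.48, edgeR adjusted p-value 0.228), and Afg3l2, a protease of the matrix side, had a log2 fold change of -0.21. The value of Romo1 was 0.24 with the length trend removed and 0.31 with the GC trend removed. The median of these 7 genes was 0.43 without untreated replicate 2 and 0.08 with the length trend removed.

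The 5 genes of mitochondrial transport had a median of -0.09. Kif5b, the kinesin heavy chain that carries mitochondria along microtubules, had 262 and 286 CPM without CCCP and 164 and 204 CPM with it. The groups were well apart, and the log2 fold change was -0.58 with an adjusted p-value of 0.227 in edgeR and 0.0444 in DESeq2. Its GC content is 41.1%, close to that of Dnm1l, and with the GC trend removed its log2 fold change was -0.30. Rhot2, an outer membrane GTPase that links mitochondria to the motor, stood at 0.15, or 0.01 with the GC trend removed.

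**Figure D5:**
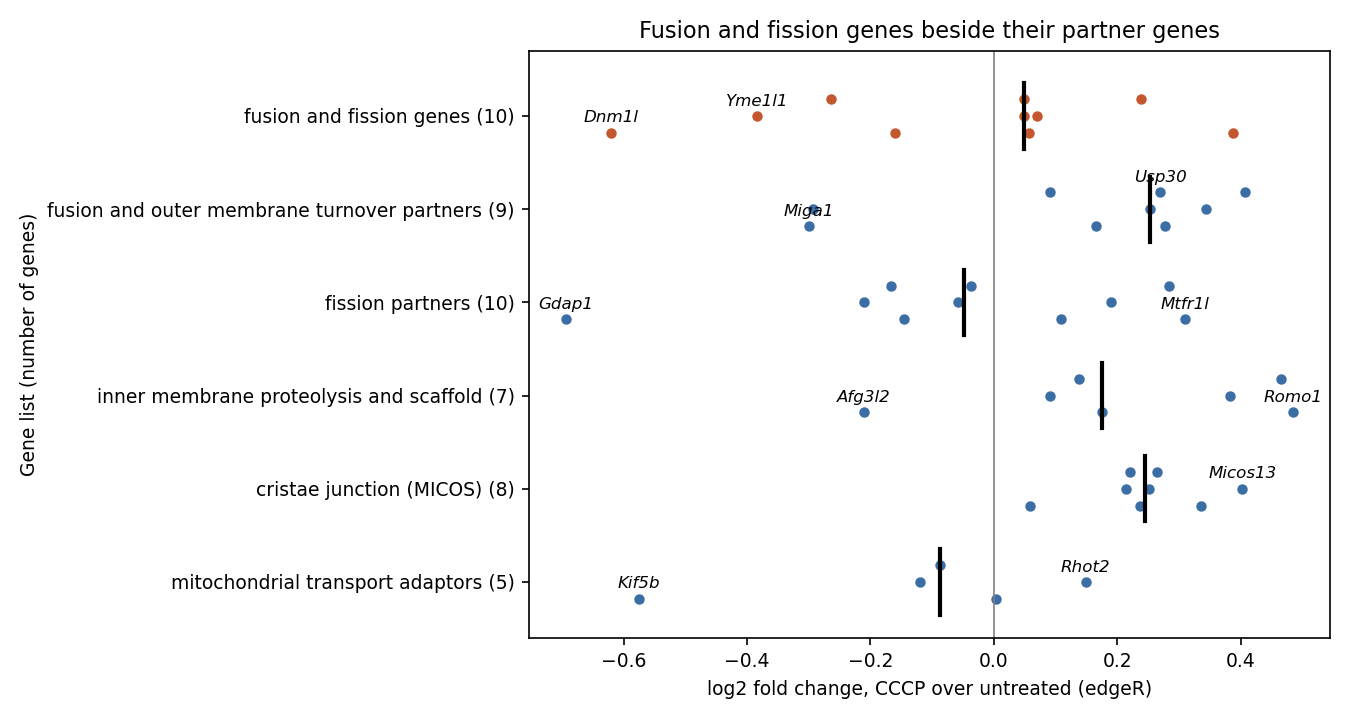
Log2 fold change of CCCP over untreated in edgeR (horizontal axis) for the 10 fusion and fission genes (orange) and 39 partner genes (blue) in 5 lists. Each point is a gene and each black bar the median of a list. Dnm1l, Gdap1 and Kif5b are the lowest points, at -0.62, -0.69 and -0.58.

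The genes nearest in pattern to Dnm1l and Yme1l1 over the 4 libraries were found by the root mean square distance between log2 CPM profiles, each centred on its own mean, among 10507 genes with a mean of at least 10 CPM. For Dnm1l they were Mtx3, Fcho2 and Resf1, at distances of 0.0111, 0.0113 and 0.013. Mtx3 had 55.8 and 50.7 CPM in untreated explants against 34.0 and 34.8 CPM under CCCP. Fcho2 had 72.2 and 67.5 CPM untreated and 44.5 and 46.0 CPM treated. Resf1 had 71.9 and 65.2 CPM untreated and 43.6 and 46.4 CPM treated. For Yme1l1 they were Orc4, Scaf11 and Mtf2, at distances of 0.00999, 0.0121 and 0.0147. At a much wider limit of 0.1, 277 of the 10507 genes lay near Dnm1l and 499 near Yme1l1. How often genes lie as near as those named was not counted, and likeness over 4 libraries is only a description.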

How the data were processed

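Poly(A) RNA libraries from 4 AGM explant samples were analysed, 2 untreated and 2 with CCCP, grouped by sample title. In the deposited file of untreated replicate 1 the alignment that was counted has the prefix UM, where the title and the name of the count output have UN; the file was assigned by the sample it was deposited under. The authors deposited raw read counts for each gene. They come from featureCounts 2.0.3 on the NCBI RefSeq annotation of mm10, per the file headers. Exons were summed per gene, with no strand option, no option to count pairs as fragments and no option for reads that map or overlap more than once. HISAT2, SAMtools and FastQC are named in the submitters' processing notes, with no version. Exon length, a number of bases, is also in the deposited files; here it was taken on the primary chromosome alone, which for Mfn2 gave 5617 of the 10445 bases listed.

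Counts were tested with edgeR 4.0.16 in R 4.3.3 (glmQLFit and glmQLFTest, TMM scaling, filterByExpr with a minimum count of 10 and total of 15, group as the sole term, two-sided, Benjamini-Hochberg over all tested genes). DESeq2 1.42.0 was an alternative. The standard error is the log2 fold change divided by the square root of F. Trends with exon length or GC content were removed per library with lowess (span 0.3). GC content is that of the longest GENCODE transcript of each symbol, known for 91.7% of tested genes. Simulated counts with known changes, but no GC trend, length trend or replicate effect, were run through some of the fits. These were the main edgeR fit, edgeR with the replicate number as a block, edgeR with the length trend removed, and DESeq2. The other fits, the one with the GC trend removed among them, were not simulated. Counting error is that of reads, which are not independent molecules, and without strand, overlaps with antisense genes are uncertain.

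The members, lists, tests and alternatives were chosen with earlier results of these data known. All 10 members are named. Of each partner list, the gene with the smallest unadjusted p in each direction is named, and 3 nearest genes for the 2 members with the smallest p, skipping predicted gene models and clone names ending in Rik.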

Additional observations from a re-analysis of the deposited data

How the results depend on the processing

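The number of genes called was 0 in edgeR (1082 higher and 1817 lower at an unadjusted p under 0.05), and 594 (59 higher, 535 lower) in DESeq2. Without a filter on low counts it was 1107 (217 higher, 890 lower), or 3.43%, with Dnm1l the 1 member called and 2 partners, Phb and Kif5b. Leaving out 1 library gave 10 to 46 genes, with no member or partner among them, where a lone library was assumed to vary like the other group. DESeq2 called 1 member and 1 partner. The fits with library size alone, with DESeq2 size factors, with the length or the GC trend removed, and without mitochondrial genome and globin genes called 0 genes.

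The replicate number as a block gave 2118 genes (754 higher, 1364 lower), or 10.7%, with 2 members (Dnm1l and Yme1l1, adjusted p-values 0.00439 and 0.0381) and 5 partners (Gdap1, Phb, Phb2, Romo1 and Kif5b). The block with the length trend removed gave 1561 genes (7.87%), 1 member (Dnm1l) and 4 partners. The block with the GC trend removed gave 977 genes (4.93%), 1 member (Mff, higher, log2 fold change 0.48, adjusted p-value 0.0245) and 3 partners, and Dnm1l was no longer called. DESeq2 with the block, chosen after seeing the data, gave 1367 genes (6.89%), 2 members (Dnm1l and Yme1l1) and 3 partners. Same-numbered libraries deviated together (correlation 0.36 over genes), but the labels do not state what the numbers stand for.

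Dnm1l, Opa1 and Mfn1 stayed negative and Fis1 and Mief2 positive in all 15 other fits, and the log2 fold change of Dnm1l ran from -0.68 to -0.34 with adjusted p-values from 0.0007 to 0.615. Signs changed with library size alone for Mfn2 (-0.0102), Oma1 (-0.00738) and Mff (-0.00211), and with the GC trend removed for Mfn2 (-0.0634, or -0.0600 with the block) and Yme1l1 (0.0110, or 0.0104 with the block). They changed for Mff with the length trend removed (-0.0585, or -0.0608 with the block). With 1 library left out, Mfn2 ran from -0.0174 to 0.165, Oma1 from -0.152 to 0.236, Mff from -0.0226 to 0.145 and Mief1 from -0.0130 to 0.1997. The median of the transport list was 0.03 with the length trend removed and -0.14 with library size alone. The cause of these shifts was not tested. With 2 libraries per group, the main fit leaves 2 residual degrees of freedom per gene, and edgeR also draws on the spread of the other genes. Fits with the block or with 1 library left out leave fewer.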
